A study of Mus musculus with 8 samples.

Results

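Elastic fibers and microfibrils were followed in ventricular tissue through 10 transcripts picked by gene symbol out of the 43346 genes in the count table, namely Eln, Fbn1, Fbln1, Fbln2, Fbln5, Efemp1, Mfap2, Mfap4, Mfap5 and Emilin1. The samples were ventricles of male C57BL/6 mice. At 7 weeks of age, 4 mice received 1000000 LLC1 cells, a mouse Lewis lung carcinoma line, under the skin of the left flank, and 4 received PBS, the vehicle. RNA was taken 14 days later. Mice carry the replicate code of their label (LLC1 1-2, 1-3, 1-5 and 2-2, and PBS 1-1, 1-3, 2-1 and 2-5), and the labels do not say what the code stands for.

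An elastic fiber has a core of cross-linked elastin inside a sheath of microfibrils, whose backbone is fibrillin. Fibulins, microfibril-associated glycoproteins and EMILINs join tropoelastin, the soluble precursor, to this scaffold, and lysyl oxidases cross-link it. In the heart such fibers lie in vessel walls, valves, the epicardium and the interstitium, where they give recoil, and microfibrils also hold latent TGF-beta. Fibroblasts, smooth muscle cells and mesothelial cells make most of these proteins.

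Tumor-bearing mice had less Fbn1, at 0.557 of the PBS level (95% interval 0.447 to 0.696), and less Mfap4, at 0.405 of it (95% interval 0.255 to 0.642). These 2 were the members called among the 10, both lower, while 743 of the 16111 genes tested were called lower (4.61%) and 663 higher (4.12%), 8.73% together. A call is an FDR under 0.05, that is, an edgeR quasi-likelihood p adjusted over all genes tested. All 10 members passed the filter on low counts. Log2 fold changes (tumor-bearing over PBS) were below 0 for 7 members and above 0 for 3, all 3 of them fibulins, with a median of -0.30 against -0.01 for all genes tested. In edgeR 5 members had an unadjusted p under 0.05 with a lower level, as had 13% of all genes tested. For higher levels the members' counts at that p and at FDR under 0.05 were 0, as was the count of calls with DESeq2 and with limma-voom, while 12.4% of all genes had an unadjusted p under 0.05 and a higher level.

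Library totals ran from 12480706 to 19747596 counts, so 1 CPM (a count scaled to 1000000 per library, with TMM factors) stands for 11.7 to 19.9 counts in a library. PBS 1-1 had the fewest counts and stood apart from the other PBS mice. It had the lowest level among the PBS mice for 9 of the 10 members, and the lowest summed level of the fibroblast (2309 CPM), endothelial (1043 CPM) and macrophage (304 CPM) markers. It was the highest PBS mouse in the summed cardiomyocyte markers (92238 CPM). Its smooth muscle sum (2591 CPM) was level with that of PBS 2-1 (2590 CPM). Most of that sum was Des (2027 CPM in PBS 1-1), which cardiomyocytes also express. Among the PBS mice PBS 1-1 was lowest for Myh11, Tagln, Cnn1 and Mylk and highest for Acta2, Myocd and Lmod1. The plot of fold changes shows each member with and without it. Without it, 6 members were called, all lower, while 11.9% of all genes were called and 6.38% were called lower. Leaving out any other mouse instead gave 1 or 2 members called, all lower.

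**Figure D1:**
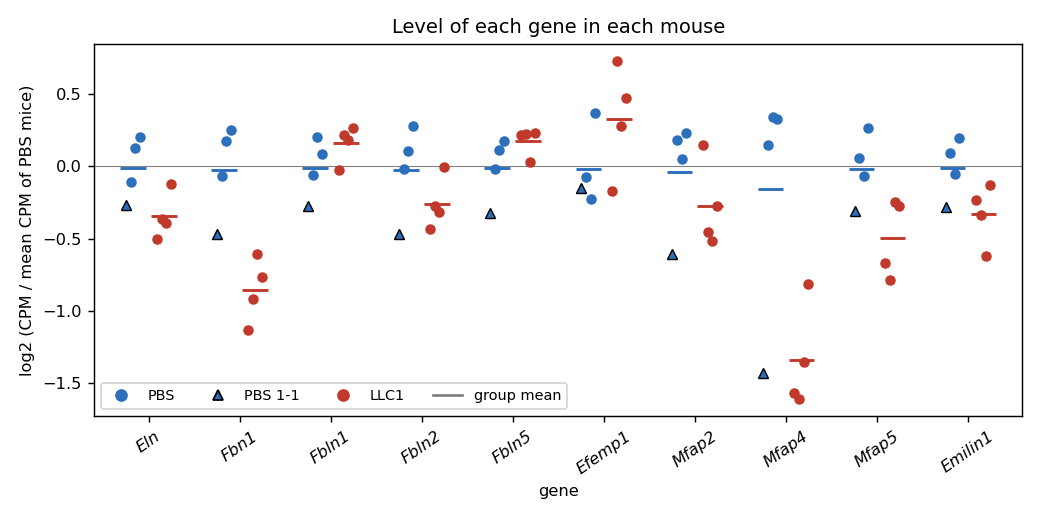
Level of the 10 transcripts in each mouse, as log2 of CPM over the mean CPM of the PBS mice (y axis) by gene (x axis), with a bar for the mean of each group of 4 mice. The groups separate only for Fbn1, and PBS 1-1 (triangle) lies with the LLC1 mice for Mfap4.

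The promoters shown are those of Fbn1, the called member whose groups did not overlap, and of the fibulin genes Fbln1 and Efemp1, as members with log2 fold changes above 0. Of the windows of Fbln1 the one with a GGGCGG is shown. Each runs 5′ to 3′ on the strand of its gene, from 250 bases before to 50 bases after a RefSeq start (build GRCm38.p6), at chr2:125506389-125506688 for Fbn1, chr15:85205758-85206057 for Fbln1 and chr11:28852955-28853254 for Efemp1. The RefSeq start used for Fbn1 lies inside the gene as counted, whose deposited 5′ end is at 125507993, so the Fbn1 window is not at the start of the counted gene model. Capitals mark GGGCGG on either strand, the core of the GC box, and, in Efemp1, TGANTCA, a loose form of the AP-1 motif. N stands for any base, and the stretch in Efemp1 is TGAATCA.
Fbn1: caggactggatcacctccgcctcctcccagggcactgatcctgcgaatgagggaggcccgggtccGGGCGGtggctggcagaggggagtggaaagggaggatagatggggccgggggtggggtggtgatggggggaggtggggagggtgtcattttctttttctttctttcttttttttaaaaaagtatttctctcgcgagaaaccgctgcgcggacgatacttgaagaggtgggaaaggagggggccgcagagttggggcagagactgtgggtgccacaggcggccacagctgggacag
Fbln1: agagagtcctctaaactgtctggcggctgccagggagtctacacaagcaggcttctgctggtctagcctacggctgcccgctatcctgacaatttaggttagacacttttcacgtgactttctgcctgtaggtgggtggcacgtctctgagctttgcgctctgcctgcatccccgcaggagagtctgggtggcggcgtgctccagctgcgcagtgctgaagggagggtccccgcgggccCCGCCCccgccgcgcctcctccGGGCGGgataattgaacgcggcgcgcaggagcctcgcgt
Efemp1: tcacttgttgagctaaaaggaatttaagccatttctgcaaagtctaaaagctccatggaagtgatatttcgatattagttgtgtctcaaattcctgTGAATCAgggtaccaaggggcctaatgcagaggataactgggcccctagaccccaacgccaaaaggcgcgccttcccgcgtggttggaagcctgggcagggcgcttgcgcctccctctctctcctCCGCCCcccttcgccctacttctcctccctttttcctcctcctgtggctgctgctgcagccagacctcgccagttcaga
RefSeq windows were matched for 7 of the 10 members, as 10 windows, and those of Eln, Mfap4 and Mfap5 were not analysed here. GGGCGG was found in 6 of the 10 windows and in 35.7% of all 32851 windows of 300 bases. CCAAT was in 3 of the 10 against 37.4%, CATTCC (the TEAD motif) in 1 against 14.7%, TGANTCA in 1 against 7.81%, and TATAAA in 0 against 13.6%, both strands being read. Fbln1, Fbln5 and Mfap2 each had a window with GGGCGG and a window without it.

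Fbn1 (ENSMUSG00000027204, chromosome 2, 125300594 to 125507993 in mm10) encodes fibrillin-1, the backbone of the microfibril. It was measured at 70.6, 81.9, 102 and 90.7 CPM in LLC1 mice 1-2, 1-3, 1-5 and 2-2, and at 112, 148, 175 and 184 CPM in PBS mice 1-1, 1-3, 2-1 and 2-5. Every LLC1 mouse lay below every PBS mouse, and PBS 1-1 was the closest of the controls to the LLC1 mice. The means were 86.2 ± 13.2 and 155 ± 32.5 CPM (SD, n = 4 each), a log2 fold change of -0.84 ± 0.15 (SE) with FDR 0.00686. An exact permutation test gave p = 0.0286, the smallest that 4 mice against 4 allow. Fbn1 was called in all 8 alternative analyses with all mice and in all 8 that left out a mouse, with log2 fold changes from -0.97 to -0.75. Fbn1 was also the single member whose groups did not overlap, as against 8.27% of the genes tested that did not overlap with LLC1 lower and 8.89% with LLC1 higher. The library kit does not mark strand, and 20.1% of the exon bases of Fbn1 (2442 bases) are shared with Gm9913 on the other strand. Gm9913 had 22 to 62 counts per mouse, against 1067 to 3118 for Fbn1.

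Mfap4 (ENSMUSG00000042436, chromosome 11, 61485431 to 61488900) encodes a fibrinogen-domain glycoprotein that binds elastic fibers. Its levels were 8.80, 8.56, 10.2 and 14.8 CPM in LLC1 mice 1-2, 1-3, 1-5 and 2-2. PBS mice 1-3, 2-1 and 2-5 had 29.0, 33.1 and 32.9 CPM, while PBS 1-1 had 9.70 CPM. The groups thus overlapped through PBS 1-1, which lay within the range of the tumor-bearing mice. With all mice the means were 10.6 ± 2.92 and 26.2 ± 11.1 CPM (SD, n = 4 each), the log2 fold change was -1.31 ± 0.31 (SE) and FDR was 0.0232, with p = 0.0857 in the exact permutation test. Without PBS 1-1 the log2 fold change was -1.56 ± 0.15 and FDR was 0.000115. The call was lost in limma-voom (FDR 0.0520), with robust empirical Bayes (FDR 0.0993), and in 5 of the 8 analyses that left out a mouse (without LLC1 1-2, 1-3 or 1-5, or PBS 1-3 or 2-1, with FDR up to 0.0748). Mfap4 is among the transcripts that the study itself selected on these mice, so its direction here is no independent evidence. Its exons share 89 bases (4.63%) with Mapk7 on the other strand, which had 113 to 168 counts in LLC1 mice and 81 to 164 in PBS mice, against 130 to 295 and 113 to 563 for Mfap4.

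Mfap5 and Mfap2 encode the microfibril-associated glycoproteins MAGP-2 and MAGP-1, small proteins that bind fibrillin. Mfap5 (ENSMUSG00000030116, chromosome 6, 122505845 to 122529290) had 17.8, 16.5, 23.9 and 23.4 CPM in LLC1 mice 1-2, 1-3, 1-5 and 2-2, and 22.8, 29.4, 27.0 and 34.1 CPM in PBS mice 1-1, 1-3, 2-1 and 2-5. The groups met at PBS 1-1, which lay below LLC1 1-5 and 2-2. The log2 fold change was -0.47 ± 0.14 (SE) with FDR 0.0592, past the threshold without PBS 1-1 (-0.56 ± 0.13, FDR 0.0150), in DESeq2 (FDR 0.0211) and with every gene of at least 1 count tested (FDR 0.0263). The last 2 were the only calls among the 8 alternatives with all mice. With a mouse left out Mfap5 was called in 1 of 8 fits, with FDR up to 0.154. Mfap2 (ENSMUSG00000060572, chromosome 4, 141010418 to 141015984) was the least abundant member, with 27 to 70 counts per mouse. It ran from 2.46 to 3.90 CPM in LLC1 mice and from 2.32 to 4.13 CPM in PBS mice, with FDR 0.446 and a 95% interval of the fold change from 0.605 to 1.13. The log2 fold change of Mfap2 was -0.27 with all mice, -0.41 without PBS 1-1 (FDR 0.159) and -0.42 without LLC1 1-2 (FDR 0.273).

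Eln (ENSMUSG00000029675, chromosome 5, 134703781 to 134747241) encodes tropoelastin. It had 57.2, 62.8, 61.7 and 74.6 CPM in LLC1 mice 1-2, 1-3, 1-5 and 2-2, and 67.2, 75.1, 88.6 and 93.1 CPM in PBS mice 1-1, 1-3, 2-1 and 2-5. LLC1 2-2 was above PBS 1-1 and below the other PBS mice. The log2 fold change of -0.34 ± 0.11 (SE) missed the threshold (FDR 0.0739, 95% interval of the fold change 0.670 to 0.931) and passed it without PBS 1-1 (-0.42 ± 0.10, FDR 0.0139). It also passed in DESeq2 (FDR 0.0401) and with the leading digit of each mouse's code as a covariate (FDR 0.0311). These were 2 of the 8 alternatives with all mice. With a mouse left out Eln was called in 1 of 8 fits, with FDR up to 0.182. Emilin1 (ENSMUSG00000029163, chromosome 5, 30913402 to 30921278) encodes a glycoprotein of the elastin-microfibril interface. It ran from 27.5 to 38.8 CPM in LLC1 mice and from 34.7 to 48.5 CPM in PBS mice, a log2 fold change of -0.32 ± 0.12 (SE) with FDR 0.113, and FDR 0.0261 without PBS 1-1. Emilin1 was called in 0 of the 8 alternatives with all mice and in 1 of the 8 fits with a mouse left out.

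**Figure D2:**
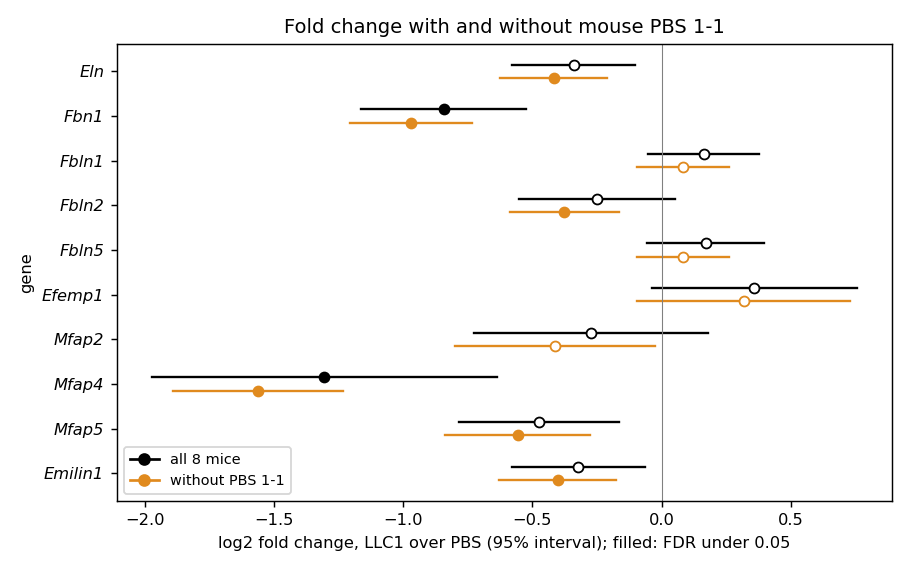
Log2 fold change of each transcript, LLC1 over PBS (x axis), with its 95% interval, for all 8 mice (black) and without PBS 1-1 (orange), filled where FDR was under 0.05. With all mice 2 transcripts were called, and without PBS 1-1 there were 6, while leaving out any other mouse instead gave 1 or 2.

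None of the 4 fibulin family members was called, and the 95% interval of each fold change included 1. Fibulins are calcium-binding glycoproteins that bridge cells, basement membranes and elastic fibers. Fbln2 (ENSMUSG00000064080, chromosome 6, 91212455 to 91272540), which encodes fibulin-2, ran from 134 to 181 CPM in LLC1 mice and from 131 to 220 CPM in PBS mice. Its log2 fold change was -0.25 ± 0.14 (SE) with FDR 0.281, and -0.38 ± 0.10 with FDR 0.0260 without PBS 1-1. It was -0.15 without PBS 2-5 (FDR 0.500) and -0.15 with the leading digit of the code as a covariate (FDR 0.341), so the value of Fbln2 moved in both directions. The other 3 had higher means in tumor-bearing mice, without a call under any alternative tried.

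Fbln1 (ENSMUSG00000006369, chromosome 15, 85205949 to 85286535), which encodes fibulin-1, had 98.0, 116, 114 and 120 CPM in LLC1 mice 1-2, 1-3, 1-5 and 2-2, and 82.7, 96.1, 115 and 106 CPM in PBS mice 1-1, 1-3, 2-1 and 2-5. Fbln5 (ENSMUSG00000021186, chromosome 12, 101746565 to 101819055) encodes fibulin-5, which binds tropoelastin and is needed to organise elastic fibers. It had 25.7, 25.9, 22.6 and 25.9 CPM in the LLC1 mice and 17.7, 21.8, 24.0 and 25.0 CPM in the PBS mice, in the same order. In both genes the groups overlapped and PBS 1-1 was the lowest of the 8 mice. The log2 fold changes were 0.16 ± 0.10 (SE) for Fbln1 and 0.17 ± 0.10 (SE) for Fbln5, each with FDR 0.330. Without PBS 1-1 they were each 0.08, and with scaling by total counts 0.10 for Fbln1 and 0.11 for Fbln5.

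Efemp1 (ENSMUSG00000020467, chromosome 11, 28853204 to 28926743) encodes fibulin-3. It had 7.94, 14.8, 10.8 and 12.4 CPM in LLC1 mice 1-2, 1-3, 1-5 and 2-2, and 8.07, 8.48, 7.65 and 11.5 CPM in PBS mice 1-1, 1-3, 2-1 and 2-5. The log2 fold change was 0.36 ± 0.18 (SE) with FDR 0.241, and the groups overlapped. Without LLC1 1-3 it was 0.22 (FDR 0.516). Markers of the epicardium and mesothelium varied in the same mice: the summed level of 6 of them was 11.8, 68.0, 41.1 and 59.8 CPM in the LLC1 mice and 19.7, 42.2, 26.4 and 53.2 CPM in the PBS mice, in that order. LLC1 1-3 was the highest and LLC1 1-2 among the lowest in both measures. The part of surface tissue in the difference between the groups was not tested.

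Levels relative to Eln were computed within each mouse, a measure that no scaling of the libraries can move. The log2 ratio of Fbn1 to Eln was 0.30, 0.38, 0.72 and 0.28 in LLC1 mice 1-2, 1-3, 1-5 and 2-2, and 0.73, 0.98, 0.98 and 0.98 in PBS mice 1-1, 1-3, 2-1 and 2-5. LLC1 1-5 and PBS 1-1 nearly touched, but no LLC1 mouse reached a PBS mouse. The ratio of Fbln1 to Eln was 0.78, 0.89, 0.88 and 0.69 in the LLC1 mice against 0.30, 0.36, 0.38 and 0.19 in the PBS mice. Here the groups were apart and PBS 1-1 lay among the other PBS mice.

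The difference of mean log2 ratios, LLC1 minus PBS, was -0.50 for Fbn1, 0.50 for Fbln1, 0.52 for Fbln5 and 0.68 for Efemp1, with no overlap of the groups in any of these 4. Eln itself had a lower mean in LLC1 mice, which raises every ratio to it. Of all other genes tested, 21.5% had groups that did not overlap with the ratio to Eln higher in LLC1 mice, and 1.07% had them with the ratio lower. The 3 fibulins, of 9 members set against Eln, are to be read against the first of these shares and Fbn1 against the second. For each the exact permutation test gave p = 0.0286 and 0.0643 after Benjamini-Hochberg adjustment over the 9 ratios, so none passed 0.05 after adjustment in a design that allows no smaller p. Leaving out each mouse in turn gave -0.60 to -0.45 for Fbn1, 0.46 to 0.54 for Fbln1, 0.46 to 0.58 for Fbln5 and 0.54 to 0.79 for Efemp1. The ratio of Mfap4 to Eln differed by -0.85 (exact permutation p = 0.114, adjusted 0.206) and by -1.19 without PBS 1-1, with PBS 1-1 at -2.79 beside LLC1 mice at -2.88 to -2.33 and the other PBS mice at -1.50 to -1.38. The differences for Fbln2, Mfap2, Mfap5 and Emilin1 lay between -0.15 and 0.10 with all mice, with overlapping groups. With each mouse left out in turn they ran from 0.04 to 0.14 for Fbln2 and from -0.10 to 0.20 for Mfap2. For Mfap5 they ran from -0.24 to -0.06 and for Emilin1 from -0.07 to 0.10.

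**Figure D3:**
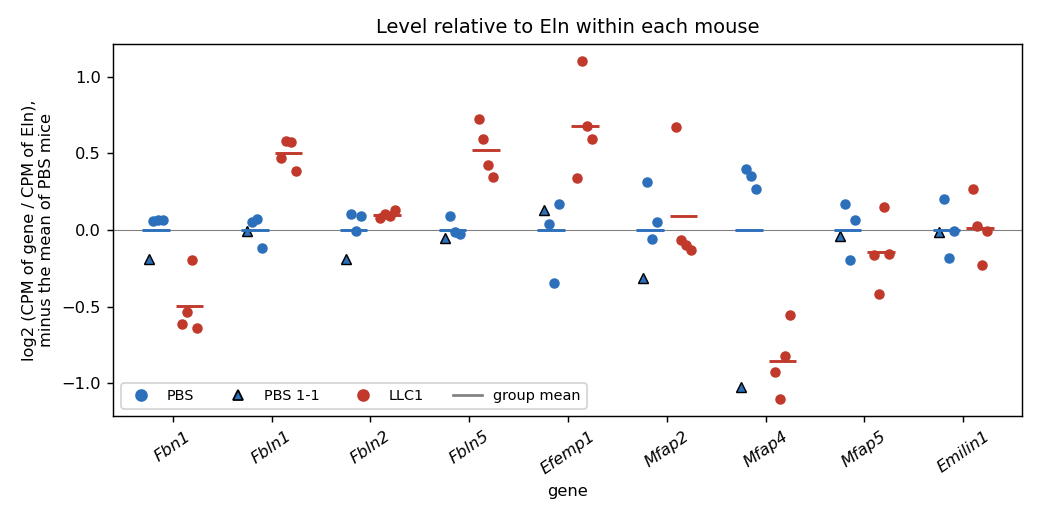
Log2 ratio of the CPM of each gene to that of Eln in the same mouse, minus the mean of the PBS mice (y axis), by gene (x axis), with a bar for each group mean. LLC1 mice lie apart from PBS mice below for Fbn1 and above for Fbln1, Fbln5 and Efemp1.

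Levels were set side by side per length as RPKM, the CPM divided by the deposited gene length in kilobases. In PBS mice Eln came first at 31.4 ± 4.64 RPKM (SD, n = 4), followed by Fbln2 (30.9 ± 6.41), Fbln1 (22.9 ± 3.19), Mfap4 (13.6 ± 5.80), Fbn1 (12.7 ± 2.68), Emilin1 (8.57 ± 1.21), Mfap5 (7.90 ± 1.31), Efemp1 (4.38 ± 0.862), Fbln5 (3.79 ± 0.557) and Mfap2 (2.91 ± 0.685). Each gene was above the next in all 4 PBS mice, except that Eln was above Fbln2 in 2 of them, Mfap4 above Fbn1 in 3 and Efemp1 above Fbln5 in 3. Without PBS 1-1 and with the scaling left as it was, Mfap4 stood at 16.5 ± 1.22 and Fbn1 at 13.9 ± 1.55 RPKM (SD, n = 3), and Fbln2 at 33.7 ± 3.50 and Eln at 33.1 ± 3.64 RPKM. In LLC1 mice Fbln2 (26.0 ± 3.42 RPKM), Fbln1 (25.7 ± 2.23) and Eln (24.8 ± 2.87) came first, and Fbn1 (7.11 ± 1.09), Emilin1 (6.87 ± 0.973), Mfap5 (5.68 ± 1.06), Efemp1 (5.64 ± 1.41), Mfap4 (5.52 ± 1.52) and Fbln5 (4.29 ± 0.279) followed, with Mfap2 (2.45 ± 0.542) last. Here only Eln over Fbn1, Mfap4 over Fbln5 and Fbln5 over Mfap2 held in all 4 mice among neighbours in the order, and the others held in 1 to 3. The deposited length of Eln, 2583 bases, is a multiple of 3 and stops 1188 bases short of the 3′ end of the gene in GENCODE M21, so its place in this order holds only for that gene model. In GENCODE M21 the exons of Eln share 267 bases (3.3%) with the antisense gene Gm30003. The RPKM of Fbn1 uses all 12128 bases, of which 2442 are shared with Gm9913. How reads in shared bases were counted was not examined. If they were dropped, the RPKM of Fbn1 is too low, as is its share given below, and its order beside Mfap4 may differ.

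The 10 transcripts summed to 114 ± 11.7 RPKM in LLC1 mice and 139 ± 25.7 RPKM in PBS mice (SD, n = 4 each), with 102, 113, 112 and 130 RPKM in LLC1 1-2, 1-3, 1-5 and 2-2 and 104, 137, 152 and 163 RPKM in PBS 1-1, 1-3, 2-1 and 2-5. The groups overlapped through PBS 1-1. Within this sum Fbn1 took 6.25 ± 0.843% in LLC1 mice against 9.14 ± 0.309% in PBS mice, and Fbln1 took 22.5 ± 1.08% against 16.6 ± 1.46%. The shares of Fbln5 (3.43 to 4.35% against 2.64 to 2.92%) and Efemp1 (3.84 to 6.45% against 2.47 to 3.82%) did not overlap either, the latter by a narrow gap. Of all genes tested, 12.1% had a ratio to this sum that was higher in LLC1 mice without overlap, and 1.31% had a lower one. Mfap4 took 4.79 ± 0.844% against 9.42 ± 3.05%, with PBS 1-1 at 4.86% among the LLC1 mice. A share also moves with the other transcripts in the sum, and the levels of these 3 fibulins were not called. The shares of Eln and Fbln2 overlapped between the groups, at 21.7 ± 0.387% against 22.7 ± 1.66% and at 22.7 ± 0.695% against 22.1 ± 0.662%. Since each group holds 4 ventricles of mixed cells, fewer cells of a type and less RNA per cell cannot be told apart in any of these values.

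**Figure D4:**
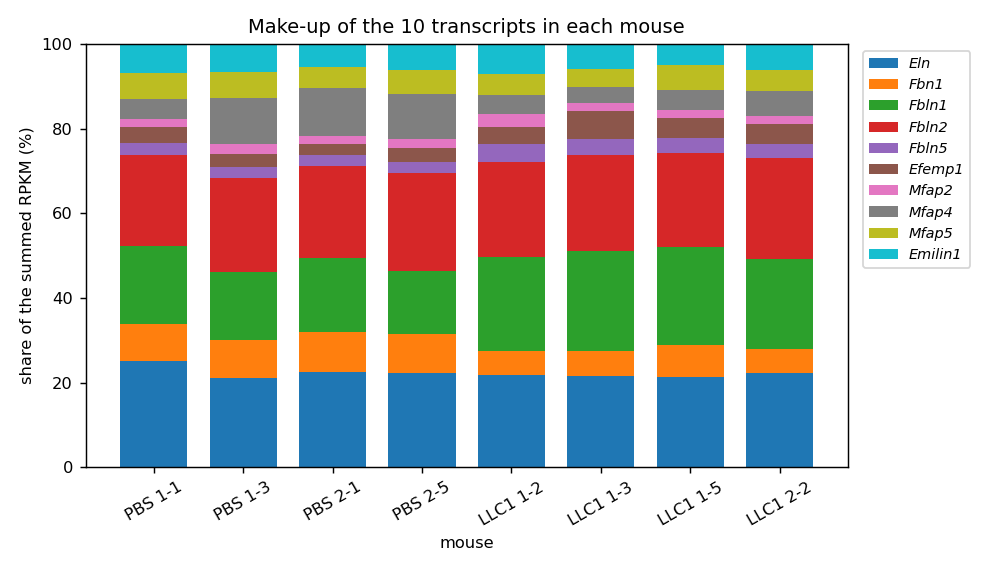
Share of each transcript in the summed RPKM of the 10 (y axis, percent) for each mouse (x axis). Fbn1 takes 5.73 to 7.50% in LLC1 mice and 8.87 to 9.47% in PBS mice, and Fbln1 takes 21.2 to 23.6% against 14.9 to 18.3%.

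The other components of the elastic fiber and the microfibril showed 3 calls among 15 tested of 17 listed, all lower, and a median log2 fold change of -0.21. Vcan, which encodes versican, a proteoglycan that binds fibrillin and fibulins, was at 0.477 of the PBS level (log2 fold change -1.07 ± 0.13, FDR 0.00103). Bgn, which encodes the small proteoglycan biglycan, was at 0.643 of it (-0.64 ± 0.13, FDR 0.0123), and Mmrn2, an EMILIN family member of endothelial cells, at 0.791 (-0.34 ± 0.09, FDR 0.0395). None of the 4 latent TGF-beta binding proteins was called. Ltbp2 was at 0.546 of the PBS level (log2 fold change -0.87 ± 0.32, FDR 0.115). Ltbp4 had 327 ± 54.7 against 379 ± 61.8 CPM (FDR 0.331), Ltbp1 62.6 ± 4.20 against 64.3 ± 1.05 CPM (FDR 0.748) and Ltbp3 56.6 ± 6.28 against 51.7 ± 5.98 CPM (FDR 0.445). Fbn2, the second fibrillin gene, stood at 1.77 ± 0.247 and 2.15 ± 0.570 CPM (FDR 0.451). Without PBS 1-1, 6 of the 15 were called, all lower. Over all genes tested 4.61% were called lower and 4.12% higher, and 6.38% were called lower without PBS 1-1. Vcan, like Mmp2 below, is a transcript the study selected on these mice.

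Of 13 genes of assembly and cross-linking, all tested, 1 was called lower and 3 higher, with a median log2 fold change of -0.04. Loxl2, a lysyl oxidase family enzyme, fell to 0.492 of the PBS level (12.3 ± 0.572 against 25.1 ± 2.40 CPM, log2 fold change -1.02 ± 0.09, FDR 0.000234). Lox (4.73 ± 0.383 against 4.80 ± 1.06 CPM, FDR 0.926) and Loxl1 (40.3 ± 4.73 against 44.0 ± 3.88 CPM, FDR 0.440), which cross-link elastin, were not called. The genes that rose were Tgm2, the cross-linking enzyme transglutaminase 2 (fold change 1.27, FDR 0.0112), Adamtsl4 (1.41, FDR 0.0167) and Adamtsl5 (1.23, FDR 0.0330), the last 2 encoding ADAMTS-like proteins. Without PBS 1-1 the counts were 3 lower and 3 higher. The shares over all genes tested were 4.61% lower and 4.12% higher with all mice.

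Among enzymes that can degrade elastin and microfibrils, and their inhibitors, 10 of 14 genes were tested and 2 were called, both lower, with a median log2 fold change of -0.18. They were the matrix metalloproteinases Mmp2 (fold change 0.656, FDR 0.00686) and Mmp14 (0.681, FDR 0.0196), and without PBS 1-1 there were 3 calls. Mmp12, the macrophage elastase, had at most 17 counts in any mouse and was not tested. The inhibitor Timp4 had 73.9 ± 5.34 against 48.7 ± 18.5 CPM (FDR 0.0847). Of 12 genes for receptors, all tested, 4 were called, all lower, with a median of -0.18, and 4 were called without PBS 1-1. Both lists are to be read against 4.61% of all genes tested called lower, and 6.38% without PBS 1-1. The called receptor genes follow. They were the integrin chains Itgb6 (fold change 0.601, FDR 0.0127), Itga8 (0.638, FDR 0.0336), Itga4 (0.649, FDR 0.0238) and Itga9 (0.748, FDR 0.0275). Itgav, which pairs with Itgb6 in a fibrillin- and latent TGF-beta-binding integrin, was at 0.814 with FDR 0.0534.

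**Figure D5:**
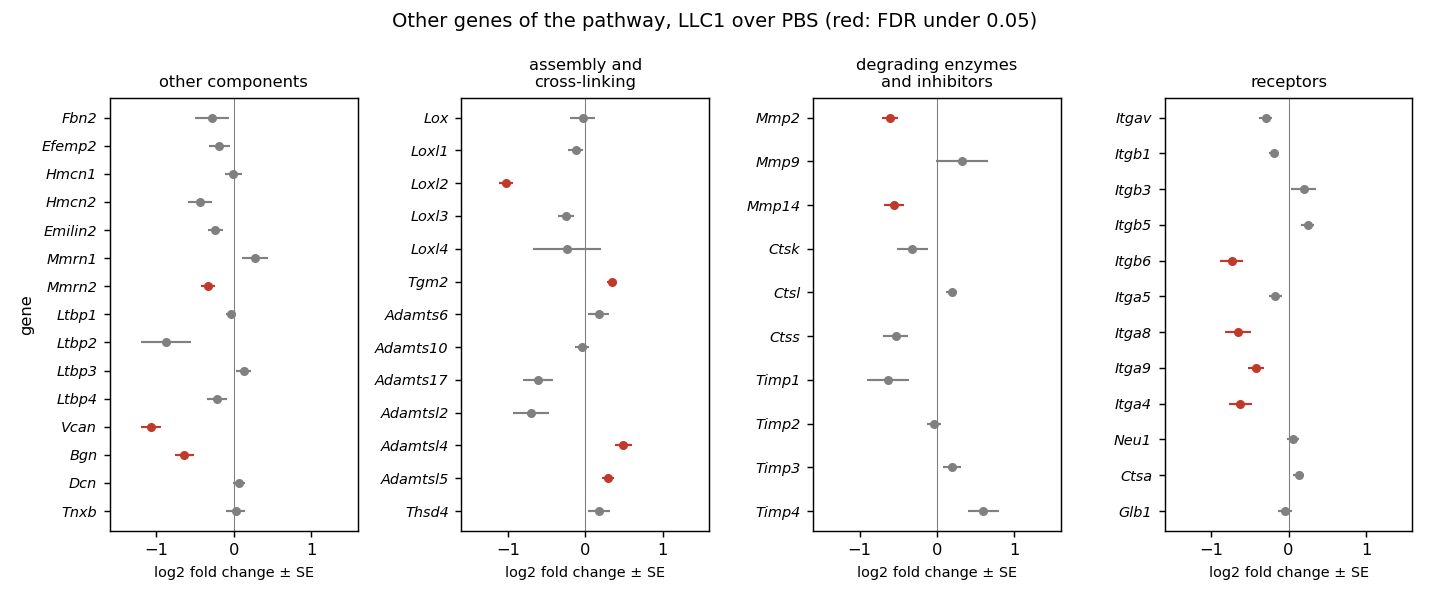
Log2 fold change, LLC1 over PBS, with its SE (x axis) for the 50 other pathway genes tested, by list (panels). The genes in red were called, 10 of them lower and 3 higher, while 4.61% of all genes tested were called lower and 4.12% higher.

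The cells that could supply these transcripts were followed with marker lists in the same mice. Calls in these short lists are to be read against 4.61% of all genes tested called lower and 4.12% called higher. Of 12 fibroblast markers 6 were called lower (median log2 fold change -0.39), among them the collagen genes Col1a1, Col1a2 and Col3a1 (log2 fold changes -0.60, -0.63 and -0.98) and Ddr2, Lum and Fstl1 (-0.50, -0.62 and -0.87). The identity genes Pdgfra (53.6 ± 1.71 against 56.3 ± 7.82 CPM, FDR 0.654) and Tcf21 (5.65 ± 0.430 against 6.59 ± 0.916 CPM, FDR 0.331) were not called. The list summed to 2337 to 2610 CPM in LLC1 mice and 2309 to 3050 CPM in PBS mice, with Gsn, also made by muscle cells, giving 1583 and 1327 CPM of the means. Of 8 adventitial fibroblast markers 3 were called lower and 1 higher, with sums of 389 to 443 against 432 to 525 CPM.

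Smooth muscle markers had 1 call of 9, Des, which cardiomyocytes also express, and it was higher. Acta2, which encodes smooth muscle actin, had 75.6 ± 20.1 against 110 ± 16.6 CPM (FDR 0.0595), and Myh11, smooth muscle myosin, 34.7 ± 11.9 against 35.4 ± 9.51 CPM (FDR 0.950). The smooth muscle sum was 2863 to 3152 against 2507 to 2591 CPM, of which Des gave 2514 and 2009 CPM of the means, and without Des it was 460 to 561 against 530 to 564 CPM, with overlapping groups. The cardiomyocyte sum (1 of 8 called, higher) was 98691 to 105160 against 89090 to 92238 CPM and the pericyte sum (1 of 7 called, lower) 1242 to 1349 against 1370 to 1548 CPM. Endothelial markers (2 of 8 called, both lower) summed to 957 to 1079 against 1043 to 1364 CPM, and macrophage markers (2 of 7 called, both lower) to 274 to 342 against 304 to 437 CPM.

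Markers of the epicardium and mesothelium, of which none of 6 was called, summed to 11.8 to 68.0 CPM in LLC1 mice and 19.7 to 53.2 CPM in PBS mice. Those of valve and tendon-like tissue, with none of 5 called, summed to 9.99 to 20.9 against 12.0 to 16.3 CPM. Of the atrial markers Bmp10 was at 0 counts in every mouse, and Myl7 stood at 1.09 ± 0.819 against 0.943 ± 0.367 CPM. The adipocyte markers summed to at most 2.19 CPM in any mouse. Cell division genes, of which all 4 tested of 8 were called lower, summed to 2.77 to 5.31 against 15.5 to 51.0 CPM. Of these, Cdk1 (means 0.338 against 2.19 CPM) and Birc5 (0.297 against 1.57 CPM) passed the low-count filter only through the PBS mice. The filter thus favoured lower calls in this list, and its count of calls is no support. Of the atrial list 1 of 4 tested was called, lower, and its sum was 115 to 342 against 126 to 253 CPM. Without PBS 1-1 the calls were 7 lower for the fibroblast list, 4 lower and 1 higher for the adventitial, 2 lower for the pericyte, 5 lower for the endothelial, 4 lower for the macrophage and 3 higher for the cardiomyocyte list. In that fit 11.9% of all genes were called and 6.38% were called lower. The part of these cells in the fall of Fbn1 and Mfap4 was not tested.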

How the data were processed

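RNA of mouse ventricles was sequenced by the authors as 150-base paired-end reads of TruSeq RNA v2 libraries, whose kit does not mark strand. The values used are raw read counts per gene that the authors deposited without normalization, and the submitters' processing notes name CASAVA, STAR and featureCounts with genome build mm10. The annotation release, the strand setting and the tool versions are not given in the sources used here.

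Counts were tested in edgeR 4.0.16 (R 4.3.3) after filterByExpr with TMM factors and glmQLFTest. FDR is the Benjamini-Hochberg value over the 16111 genes tested, and the SE is the absolute log2 fold change over the square root of F. Exact permutation tests were 2-sided over the 70 arrangements of the 8 mice. Alternatives were total-count and upper-quartile scaling, DESeq2 1.42.0, limma-voom (limma 3.58.1), robust empirical Bayes, other low-count filters, the leading digit of the mouse code as a covariate, and each mouse left out. In simulated counts with 198 genes changed 2-fold among 15963 tested, 84.8% were recovered with 9 false calls. No simulated mouse was made to stand apart as PBS 1-1 did. The rate does not hold for changes under 2-fold, as were those of all members but Mfap4. Exon overlaps came from GENCODE M21 and similar transcripts from BLAST 2.17.0 (95% identity over 150 bases or more), which beside the overlaps found Emilin1 with Gm35339 (95.3% over 150 bases). Python 3.11.15 with scipy 1.17.1 and matplotlib 3.10.9 did the rest.

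The members and gene lists were chosen with earlier results of these data known. Genes named are the members, the called genes of 4 pathway lists, others of these lists and of the marker lists where a count needs them, and the 10 genes most like the members.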

Additional observations from a re-analysis of the deposited data

Results flagged for a closer look

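In 2 of the 20 groups of 4 mice (10 members in 2 groups) a mouse lay far from the others on the log2 CPM scale, where chance alone gives about 1 in 20. For Mfap4, PBS 1-1 (9.70 CPM) lay below the other PBS mice by 0.89 of the whole range of the PBS group, over the 95% limit of Dixon's test for 4 samples. This mouse also had the smallest library and the lowest fibroblast marker sum of the PBS mice (2309 CPM). Without it the log2 fold change of Mfap4 went from -1.31 to -1.56. For Fbln5, LLC1 1-5 (22.6 CPM) lay below the other LLC1 mice by 0.95 of the range, a range that ran only to 25.9 CPM.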

How the results depend on the processing

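No member changed direction in any refit (8 alternatives with all mice and 8 with a mouse left out). Of the 160 values of the 10 members in these refits, 145 kept their side of the threshold. The number of members called lower, 2, was 4 with DESeq2, 1 with limma-voom, 1 with robust empirical Bayes, 3 with the mouse code as covariate, 3 with genes of at least 1 count and 2 with the other 3 alternatives on all mice, and ran from 1 (without LLC1 1-2, 1-3 or 1-5, or PBS 1-3 or 2-1) to 6 (without PBS 1-1) with each mouse left out. Calls over all genes ran from 542 (without PBS 1-3) to 1949 (without PBS 1-1) against 1406, were 1757 with DESeq2, 1385 with limma-voom, 1491 with robust empirical Bayes, 1681 with the covariate and 1515 with genes of at least 1 count, and were 751, 634, 712 and 832 without LLC1 1-2, 1-3, 1-5 and 2-2. The log2 fold change of the summed RPKM (-0.29) ran from -0.40 (without PBS 1-1) to -0.21 (without PBS 2-5). Scaling by total counts moved the median of all genes from -0.01 to -0.06 and the share of called genes that were higher from 47.2% (663 of 1406) to 22.1% (225 of 1018). The cause of these changes was not tested. No paired analysis was possible because the groups share only 1 replicate code, carried by different mice. Mfap2 rests on the fewest counts, 27 to 70 per mouse.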

Other observations

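The relation of Efemp1 to the mesothelial markers was looked at after its values were seen. Over the 8 mice, log2 CPM of Efemp1 and log2 of the summed CPM of the 6 markers had Pearson's r = 0.832 and Spearman's rho = 0.905, given as a description with no p because the relation was chosen for these values. Without LLC1 1-2 and PBS 1-1, the mice farthest from the median of the marker sum, r was 0.922. For the other 9 members r lay between -0.155 and 0.605.

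The genes whose deviations from the group means over the 8 mice were most like the mean deviation of the 10 members, among 15056 genes with a mean of at least 1 CPM, were Fam160b2, Ttll12, Arhgef1, Cdh5, Ttyh3, Galnt10, Tbc1d9b, Vps52, Sqstm1 and Serpinf1. Their r, given as a description, ran from 0.983 to 0.997, and from 0.930 to 0.992 without PBS 1-1. Deviations of 467 of the genes (3.1%) had an r above 0.9. Cdh5 encodes the endothelial VE-cadherin and Serpinf1 the secreted protein PEDF of fibroblasts. Of these 10 genes Sqstm1 alone was called between the groups (log2 fold change 0.37, FDR 0.0254), and it was higher in tumor-bearing mice.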
